A study of Mus musculus with 2 samples.

Results

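Adipokines are hormones and other proteins that fat cells release into the blood or act with locally. The 8 genes described here, Adipoq, Lep, Retn, Cfd, Rbp4, Nampt, Fgf21 and Serpina3c, were taken by symbol from a table of 10778 gene symbols, of which they hold 10 of 14189 transcript rows. The tissue was brown fat of male C57BL6/J mice, 8 to 12 weeks old, all on a diet with 60% of its energy from fat for 10 days. The SML group was given 5 mg per kg of SML by the intraperitoneal route during the diet, and the HFD control group had the diet without SML. SML is the abbreviation in the labels, and the series title names sesaminol, a lignan of sesame. Each group was 1 library, and the labels used here do not state from how many animals it came.

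Adiponectin, leptin and resistin are encoded by Adipoq, Lep and Retn and act on energy use, appetite and insulin action through receptors in distant tissues. Brown fat also releases factors of its own, among them FGF21, while it burns lipid for heat. Leptin and resistin are made chiefly by white fat in mice, whereas Adipoq and Cfd are transcribed at high levels in both kinds of fat. The comparison asked how expression in brown fat on a high-fat diet differed with SML.

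Levels are given as FPKM, a fragment count corrected for transcript length and library size, as the authors deposited them. The difference between libraries is log2(FPKM + 1) in SML minus that in HFD control, a scale that understates the change of low genes. A gene was called higher or lower when this difference reached 1.5-fold, which is 0.585 on the log2 scale, and its mean FPKM over SML and HFD control was 1 or more. Ratios are of the authors' scaled count columns, SML over HFD control, with a 95% exact conditional binomial interval on estimated fragments. These intervals cover counting error only. With 1 library per group there was no replicate check and no test, so every value compares 2 libraries and not 2 conditions.

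The table held an estimated 8502352 fragments for SML and 12005329 for HFD control. The labelled tissue carried its markers, with Ucp1, the uncoupling protein of brown fat, at 7955 FPKM in SML and 8702 in HFD control. Of 8 general adipocyte markers 0 passed the size rule, and their summed level was 32620 FPKM in SML and 35590 in HFD control. Fabp4 made up most of that sum, at 26730 FPKM in SML and 30000 in HFD control. Of the 8 differences 5 were positive and 3 negative, with a median of 0.05. Markers of several other cell types were lower in the SML library. Skeletal muscle markers were lower in 15 of 15 (271 FPKM summed in SML, 4120 in HFD control), 4 of which passed the filter through HFD control alone, and macrophage markers in 6 of 10 with 1 higher (290.6 FPKM in SML, 470.4 in HFD control). Hepatocyte markers kept by the filter were lower in 6 of 6 (9.15 FPKM in SML, 48.21 in HFD control over all 10), with Alb, Ttr, Ahsg, Fga, Fgb and Fgg listed at 0 in SML. Of the 6 kept, 4 (Alb, Apoa1, Ttr and Serpina1a) were under 1 FPKM in SML and passed the filter only through HFD control, so their call was fixed by the filter, and without a filter 7 of 10 were lower. Erythroid markers were lower in 4 of 4 (1012 FPKM in SML, 1974 in HFD control) and endothelial ones in 2 of 9 (178.8 FPKM in SML, 268.7 in HFD control). Fibroblast markers gave 1 higher and 1 lower of 7 (321.9 FPKM in SML, 446.1 in HFD control), with 4 differences positive, 3 negative and a median of 0.09. Ly6a, at 122.5 FPKM in SML and 250.9 in HFD control, weighed most in the gap of that sum. White fat markers gave 1 higher and 2 lower of 3 (39.72 FPKM in SML, 66.7 in HFD control), and of 2 neutrophil markers 1 was higher (7.55 FPKM in SML, 5.24 in HFD control). Of the white fat markers lower, Agt was at 0.62 FPKM in SML and passed the filter through HFD control alone. The higher neutrophil marker, S100a8, had a ratio of 3.63 (0.87 to 21.2) on 8 fragments in SML and 3 in HFD control. Brown adipocyte markers gave 2 higher and 0 lower of 9 (37470 FPKM in SML, 44230 in HFD control), with 6 differences positive, 3 negative and a median of 0.15. Of those higher, Dio2 had a difference of 0.46 once a trend across genes with GC content and transcript length was taken out, and Zic1 passed the filter only through SML. Prdm16, a regulator of brown fat identity, lay under the filter at 0.41 FPKM in SML and 1.42 in HFD control, 3.44-fold lower (2.36 to 5.2) on 33 fragments in SML and 155 in HFD control. Without a filter 2 brown markers were lower, Prdm16 and Lhx8, and Cox8b was lower on the count columns. Cox8b, at 14820 FPKM in SML and 22040 in HFD control, had the largest gap in FPKM of this list and so weighed most in its sum. The FPKM of Lhx8 was listed at 0 in SML, although 14 fragments were counted there and 20 in HFD control. Its count ratio was 0.951 (0.445 to 1.98). Fewer cells of a type and less RNA per cell cannot be told apart in bulk tissue, and the part of these cell types in the results below was not tested.

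Among the 8 adipokine genes, Retn and Serpina3c were lower in the SML library and Fgf21 was higher, while Nampt lay just under the size rule. The most abundant members were close between libraries, or lower by less than the size rule. The count was 1 of 8 higher, beside 5.44% of 9887 genes kept, and 2 of 8 lower, beside 5.76%. All 8 passed the filter on low values, Fgf21 through its SML value alone, so that the direction of its call was fixed by the filter. The median difference of the 8 was -0.24, beside 0 for all genes kept, whose quartiles were -0.21 and 0.22. Together the 8 genes made up 0.652% of all FPKM in SML and 0.671% in HFD control.

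**Figure D1:**
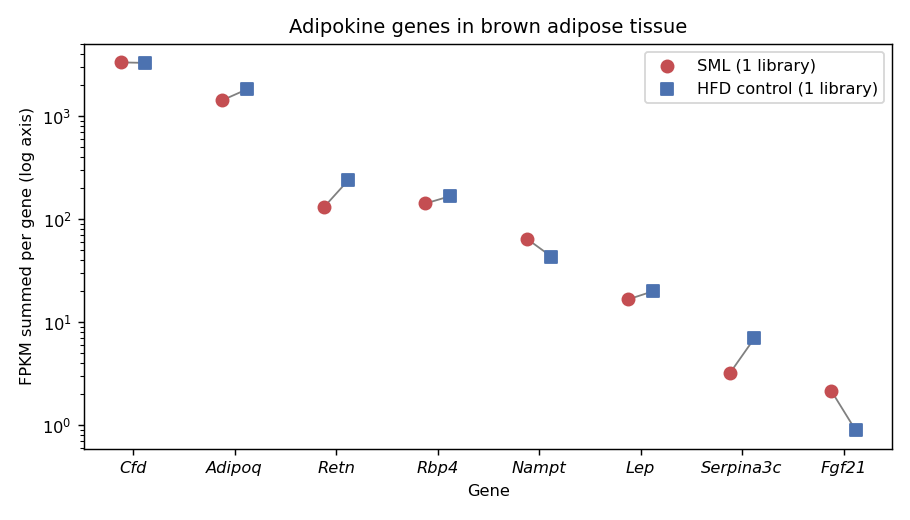
Level of each adipokine gene in the SML library (circles, left) and the HFD control library (squares, right), as FPKM summed per gene on a log axis, with 1 library per point. Cfd stands highest in both libraries at 3343 FPKM in SML and 3305 in HFD control, Fgf21 lowest at 2.15 and 0.89, and Retn and Rbp4 change places.

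The levels spanned a wide range and kept nearly the same order in both libraries. In SML the order was Cfd, Adipoq, Rbp4, Retn, Nampt, Lep, Serpina3c and Fgf21. In HFD control Retn stood above Rbp4, and the rest of the order was the same. Within SML, Rbp4 at 142.4 FPKM (95% counting interval 134 to 151) and Retn at 131.2 (120 to 143) overlapped in their intervals, as did Serpina3c (2.35 to 4.26) and Fgf21 (1.23 to 3.49). No neighbouring genes overlapped in HFD control.

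Cfd encodes adipsin, the complement factor D protease that starts the alternative complement pathway and is released in large amounts by mouse fat. Its level was 3343 FPKM in SML and 3305 in HFD control, rank 34 and rank 42 of all symbols. The count ratio was 1.01 (0.99 to 1.02) on 24183 fragments in SML and 32660 in HFD control, and the difference was 0.02. Cfd was the 1 member whose interval included a ratio of 1.

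The near-equal Cfd sum was made of 2 transcript rows whose estimated levels differed slightly in opposite directions. The first row stood at 1867 FPKM in SML and 1953 in HFD control, a ratio of 0.951 (0.93 to 0.972). The second stood at 1476 FPKM in SML and 1351 in HFD control, a ratio of 1.09 (1.06 to 1.11). The second row held 44.1% of Cfd FPKM in SML and 40.9% in HFD control. GENCODE lists 2 coding Cfd transcripts, of 922 and 871 bases, that align with 100% identity over 871 bases and 3 gap bases, so few fragments can separate them. The intervals of the 2 rows leave out the error of dividing fragments between them, so whether the split differed cannot be judged from them. The files do not say which row is which transcript. The gene lies at chr10:79890853-79892655 on the plus strand of mm10 with 5 exons, while the table's interval for it (chr10:79697305-80369637) is shared by 32 symbols and is not the span of Cfd.

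Adipoq, the gene of adiponectin, was the second most abundant member. It stood at 1436 FPKM in SML and 1829 in HFD control, ranks 101 in SML and 81 in HFD control. The ratio was 0.782 (0.767 to 0.798), a difference of -0.35, and 14.7% of the genes kept had a lower one. The interval is narrow because 14683 fragments in SML and 25516 in HFD control lay behind it, and the gap stays under the size rule. Adipoq has 3 exons at chr16:23146536-23158028 on the plus strand. The level of Cfd was 2.33 times that of Adipoq in SML and 1.81 times in HFD control, per length.

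Lep, the gene of leptin, which signals fat stores to the brain, was detected at a far lower level. It stood at 16.71 FPKM in SML and 19.94 in HFD control, on 501 fragments in SML and 813 in HFD control. Its ratio was 0.837 (0.748 to 0.938) and its difference -0.24, under the size rule. The level of Adipoq was 85.9 times that of Lep in SML and 91.7 times in HFD control. Lep spans chr6:29060220-29073877 on the plus strand with 3 exons.

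Retn, the gene of resistin, a small cysteine-rich hormone that opposes insulin action in mice, was 1.84-fold lower in the SML library (1.66 to 2.05). It stood at 131.2 FPKM in SML and 239.6 in HFD control, on 510 fragments in SML and 1278 in HFD control. The difference was -0.86, and 2.53% of the genes kept had a lower one. Retn was 0.0913 of the Adipoq level in SML and 0.131 in HFD control, so Retn was lower in SML relative to Adipoq too. It lies at chr8:3655770-3660110 on the plus strand with 5 exons.

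Rbp4 encodes the carrier that takes retinol through the blood. Its summed level was 142.4 FPKM in SML and 167.3 in HFD control, a ratio of 0.845 (0.782 to 0.913) and a difference of -0.23. Of its 2 rows the major one held 96.1% of the FPKM in SML and 95.6% in HFD control, at 136.8 FPKM in SML and 160.0 in HFD control. The minor row stood at 5.6 FPKM in SML and 7.35 in HFD control on 58 fragments in SML and 104 in HFD control, and its ratio was 0.759 (0.54 to 1.06). Both ratios lay under 1, but the interval of the minor row includes 1. The Rbp4 transcripts of 1161 and 937 bases in GENCODE align with 100% identity over 866 bases, so fragments there cannot separate them. The intervals leave out the error of dividing fragments between rows, so whether the split differed cannot be judged from them. Which row is which transcript is not given. Rbp4 lies at chr19:38116629-38125281 on the minus strand with 6 exons.

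Nampt encodes the enzyme that makes nicotinamide mononucleotide, the rate-limiting step of NAD salvage, and is also found outside cells under the name visfatin. Nampt stood at 64.64 FPKM in SML and 43.49 in HFD control, on 2751 fragments in SML and 2518 in HFD control. The ratio was 1.49 (1.41 to 1.57) and the difference 0.56, just under the size rule, with 94% of the genes kept below it. Its difference was 0.61 with totals made equal outside the 50 highest genes and 0.64 with totals made equal without skeletal muscle markers, both past the rule, but 0.34 once a trend across genes with GC content and transcript length was removed. The gene has 11 exons at chr12:32819545-32853349 on the plus strand, and Gdap10, annotated on the same strand, lies within its span. Reads of both could not be separated there if both were transcribed.

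Fgf21, the gene of fibroblast growth factor 21, a stress and fasting hormone that brown fat can release, had the highest ratio of the members and the fewest fragments. It stood at 2.15 FPKM in SML and 0.89 in HFD control. The ratio of 2.41 rested on 16 fragments in SML and 9 in HFD control, and its interval ran from 1.01 to 6.21. The difference of 0.74 passed the size rule, but the gene was left out where a mean FPKM of at least 5 was asked. Since its HFD control value was under 1 FPKM, the filter fixed the direction of the difference, though not its size. Fgf21 has 3 exons at chr7:45613886-45615490 on the minus strand.

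Serpina3c encodes a serine protease inhibitor of a mouse gene cluster on chromosome 12. It was 2.18-fold lower in the SML library (1.55 to 3.1), at 3.2 FPKM in SML and 6.95 in HFD control, on 47 fragments in SML and 139 in HFD control. The difference of -0.92 was the lowest of the members, and 2.2% of the genes kept lay below it. Its transcript aligned to those of its neighbours with 87.4% identity to Serpina3k, 89.7% to Serpina3m, 81.6% to Serpina3n and 78.5% to Serpina3g, so fragments from the stretches they share may be split between them in the authors' counting. Hepatocyte markers were lower in the same library, with summed levels of 9.15 FPKM in SML and 48.21 in HFD control, and their part in the result was not tested. The gene lies at chr12:104146382-104153870 on the minus strand with 5 exons.

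**Figure D2:**
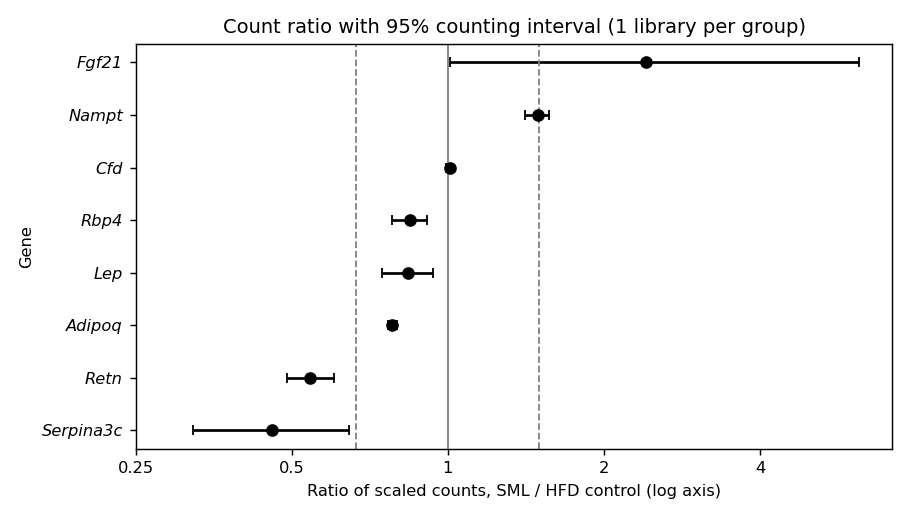
Ratio of the authors' scaled counts, SML over HFD control, for each adipokine gene on a log axis, with bars for the 95% exact binomial counting interval and dashed lines at 1.5-fold in each direction, 1 library per group. Retn at 0.542 and Serpina3c at 0.459 lie left of the lower line with their whole intervals, Nampt at 1.49 straddles the upper line, and the interval of Fgf21 runs from 1.01 to 6.21.

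The median size of a difference over all genes kept was 0.22 on the log2 scale, in either direction. Retn, Serpina3c, Fgf21 and Nampt lay beyond that size, Adipoq somewhat beyond it, Lep and Rbp4 near it, and Cfd within it. Nampt was at 0.34 without the trend with GC content and transcript length. The median covers genes of all levels, so it does not measure the spread of a gene with as few fragments as Fgf21.

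**Figure D3:**
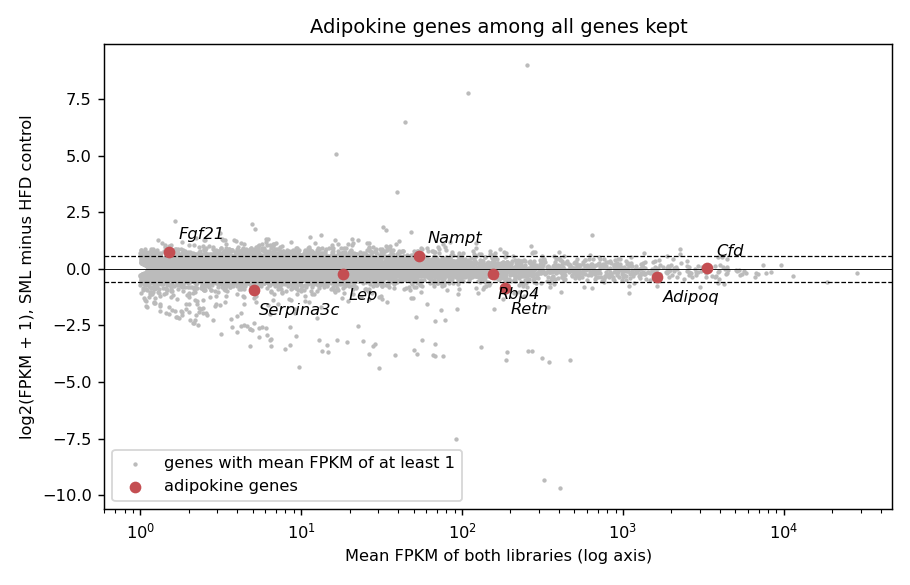
Difference in log2(FPKM + 1), SML minus HFD control, against mean FPKM of both libraries on a log axis for the 9887 genes kept (grey) and the adipokine genes (red), with dashed lines at 1.5-fold. Retn (-0.86) and Serpina3c (-0.92) lie under the lower line, Fgf21 (0.74) above the upper line, and Nampt (0.56) just inside it.

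The promoters of the 3 genes past the size rule are shown with those of Nampt, just under it, and Lep, which carries a match to the C/EBP palindrome. All 8 genes had a RefSeq promoter window on GRCm38.p6, from 250 bases before to 50 bases after the annotated start, 9 windows in all. Capitals mark matches on either strand to any of 7 motifs that were searched: the C/EBP palindrome TTGCGCAA, the C/EBP-ATF response element TGATGNAAN, the E-box CACGTG, the CCAAT box, the TATA box TATAAA, the nuclear receptor half-site AGGTCA and the GC box GGGCGG. Sequences read 5′ to 3′ on the strand of the gene.
Fgf21, chr7:45615441-45615740, minus strand: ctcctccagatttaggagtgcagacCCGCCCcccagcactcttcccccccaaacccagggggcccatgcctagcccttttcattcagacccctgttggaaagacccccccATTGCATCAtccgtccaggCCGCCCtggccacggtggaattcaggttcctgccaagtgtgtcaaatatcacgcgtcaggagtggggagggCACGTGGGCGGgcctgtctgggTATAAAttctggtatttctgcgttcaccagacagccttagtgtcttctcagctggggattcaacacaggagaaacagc
Lep, chr6:29059971-29060270, plus strand: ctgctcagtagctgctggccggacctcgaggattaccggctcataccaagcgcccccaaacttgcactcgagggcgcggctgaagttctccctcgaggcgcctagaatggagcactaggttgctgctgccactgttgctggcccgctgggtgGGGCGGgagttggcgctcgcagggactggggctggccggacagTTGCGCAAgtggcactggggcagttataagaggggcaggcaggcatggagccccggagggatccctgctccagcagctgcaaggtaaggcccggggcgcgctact
Nampt, chr12:32820085-32820384, plus strand: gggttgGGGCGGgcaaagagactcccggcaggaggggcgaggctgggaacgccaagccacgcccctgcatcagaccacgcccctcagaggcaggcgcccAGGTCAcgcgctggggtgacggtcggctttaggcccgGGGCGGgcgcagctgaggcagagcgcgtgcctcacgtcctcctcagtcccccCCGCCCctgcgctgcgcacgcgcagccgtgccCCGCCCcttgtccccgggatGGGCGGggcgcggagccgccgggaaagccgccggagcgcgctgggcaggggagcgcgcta
Retn, chr8:3655520-3655819, plus strand: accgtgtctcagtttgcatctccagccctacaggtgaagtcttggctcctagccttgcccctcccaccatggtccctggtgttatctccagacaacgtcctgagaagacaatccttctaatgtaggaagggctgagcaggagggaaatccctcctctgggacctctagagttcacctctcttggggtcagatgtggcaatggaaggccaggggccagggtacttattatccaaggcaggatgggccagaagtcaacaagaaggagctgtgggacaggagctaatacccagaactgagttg
Serpina3c, chr12:104153823-104154122, minus strand: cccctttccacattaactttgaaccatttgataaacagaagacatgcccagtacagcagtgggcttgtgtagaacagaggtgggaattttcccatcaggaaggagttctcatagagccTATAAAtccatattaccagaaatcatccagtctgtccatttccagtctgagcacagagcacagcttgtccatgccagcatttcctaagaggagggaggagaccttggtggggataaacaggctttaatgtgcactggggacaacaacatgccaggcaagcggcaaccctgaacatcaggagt

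In the Fgf21 window the C/EBP-ATF response element, the kind of site through which ATF4 is known to act, matched in reverse at positions -140 to -132 from the start. Of 32851 promoter windows 3.95% held that motif. An E-box at -50 to -45, a motif in 7.15% of windows, shared its last base with a GC box, and a TATA box stood at -28 to -23. The C/EBP palindrome in the Lep window, at -55 to -48, occurred in 60 windows (0.183%). The Nampt window was 76.3% G and C with 5 GC boxes, a motif in 35.7% of windows, and 1 nuclear receptor half-site, in 16.3%. Serpina3c had 1 match to the TATA box, a motif in 13.6% of windows, at -132 to -127 and so not at the place of the Fgf21 match. The Retn window held a match to 0 of the 7 motifs, and so did that of Cfd, which is not shown. Of the windows not shown, that of Adipoq had 3 CCAAT boxes between -34 and -3, a motif in 37.4% of windows. A C/EBP-ATF response element also matched in 1 of 2 Rbp4 windows, at -76 to -68, and a TATA box in the other, at -28 to -23. A match describes letters only, and the absence of one in 300 bases says nothing of the factor.

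In the lists of genes around the adipokines, counts of calls stand beside 5.44% higher and 5.76% lower among all genes kept. Of 19 factors known to act on adipokine genes 16 passed the filter, of which 4 were higher (25%) and 0 lower, with a median difference of 0.19. Without a filter 2 of 19 were lower, Prdm16 as given above and Sirt1. The FPKM of Sirt1 was listed at 0 in SML, although 20 fragments were counted there and 35 in HFD control. Its count ratio was 0.797 (0.425 to 1.38). Zfp423, a factor of adipocyte commitment, stood at 2.52 FPKM in SML and 3.86 in HFD control, a ratio of 0.651 (0.518 to 0.816) and a difference of -0.47, and was called lower with a pseudocount of 0.1 and on the count columns. Prdm16 and Zfp423 were chosen after their values were seen. Cebpb, a C/EBP factor of early adipogenesis, stood at 228.2 FPKM in SML and 134.8 in HFD control, a ratio of 1.69 (1.6 to 1.78). Klf15, Ebf1 and Hif1a, factors of lipid metabolism, adipocyte commitment and low oxygen, had ratios of 1.67 (1.41 to 1.98), 1.9 (1.6 to 2.25) and 1.76 (1.52 to 2.05). Once the trend across genes was taken out, Cebpb and Hif1a had differences of 0.48 and 0.42 and no longer passed. The main activators of Adipoq differed less. Pparg, a nuclear receptor required for adipocyte formation, was at 1.07 (1.01 to 1.12), Rxra, its partner, 1.22 (1.1 to 1.36), and Cebpa 0.865 (0.838 to 0.892).

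Receptors and handling genes of adiponectin differed little. Of 12 listed genes 10 passed the filter, with 0 higher and 1 lower (10%). Of the adiponectin receptors, Adipor1 stood at 66.85 FPKM in SML and 62.81 in HFD control, and Adipor2 at 179.1 FPKM in SML and 181.4 in HFD control. Cdh13, T-cadherin, which binds multimeric adiponectin, was 1.71-fold lower (3.21 against 5.47 FPKM), a call that ended under both changes of the totals. The oxidoreductase Ero1l (now Ero1a), which with Erp44 governs the assembly and release of adiponectin, had a ratio of 1.64 (1.34 to 2.0) and a difference of 0.58, and Erp44 a ratio of 1.09 (0.963 to 1.24). Ero1l passed the size rule on the count columns, with a pseudocount of 0.1 and under both changes of the totals. Its difference was 0.33 once the trend with GC content and transcript length was taken out.

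Of 15 genes of leptin signalling 11 passed the filter, and 1 was higher (9.09%) and 0 lower, with 8 differences positive and 3 negative. Taking the highest transcript of each symbol made 2 lower, Stat3 and Stat5a. Summed over their rows, Stat3 had a ratio of 0.773 (0.684 to 0.875) and a difference of -0.44, and Stat5a a ratio of 0.971 (0.864 to 1.09). Ptpn2, a phosphatase that dampens JAK signalling, stood at 8.8 FPKM in SML and 5.37 in HFD control, a ratio of 1.63 (1.25 to 2.15). Taking out the trend with GC content and length left a difference of 0.32, under the rule. Lepr, the leptin receptor, and Stra6, the receptor for Rbp4, were not analysed here.

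Retnla, a resistin relative known from macrophages and fat, was lower by more than Retn itself. It stood at 32.42 FPKM in SML and 116.6 in HFD control, which is 3.63-fold lower (3 to 4.41) on 131 fragments in SML and 646 in HFD control. Cap1, proposed as a resistin receptor in human monocytes, had a ratio of 0.774 (0.705 to 0.849). These and 2 genes under the filter were the 4 of 6 list members measured. Macrophage markers were lower beside them in 6 of 10, at 290.6 FPKM summed in SML and 470.4 in HFD control, and their part was not tested.

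The alternative complement pathway, which adipsin starts, gave mixed values. Of 11 listed genes 7 passed the filter, with 1 higher (14.3%) and 2 lower (28.6%). Cfb, the factor that adipsin cleaves, was 2.15-fold lower (2.68 FPKM in SML, 5.75 in HFD control; 1.62 to 2.88), while C3, its partner, had a ratio of 1.18 (1.15 to 1.22) at 161.3 FPKM in SML and 136.4 in HFD control. C5ar1, a receptor on myeloid cells, was 2.13-fold lower (1.24 to 3.8) on 19 fragments in SML and 55 in HFD control, and its call ended under both changes of the totals. Cd55, a protector of host membranes, had a ratio of 2.66 (1.6 to 4.55) on 47 fragments in SML and 24 in HFD control, and its difference was 0.41, under the rule, without that trend. Cd55 passed the filter through SML only and C5ar1 through HFD control only. Macrophage markers were lower in the same library, as given above.

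Retinol genes around Rbp4 were lower where they passed the size rule. Of 26 listed genes 15 passed the filter, with 0 higher, 4 lower (26.7%) and a median of -0.22. Dhrs3, which reduces retinal to retinol, was 1.87-fold lower (1.74 to 2.0) at 94.49 FPKM in SML and 175.4 in HFD control. Aldh1a1, which makes retinoic acid, was 2.7-fold lower (1.88 to 3.95) on 39 fragments in SML and 143 in HFD control. Fabp5, a carrier of fatty acids and retinoic acid, was 1.52-fold lower (146.5 FPKM in SML, 221.9 in HFD control), a call that ended under both changes of the totals. Ttr, which carries Rbp4 in blood and marks hepatocytes, was listed at 0 in SML and at 3.33 FPKM in HFD control, beside Alb at 0 FPKM in SML and 6.4 in HFD control. Of the 4 lower, Ttr alone passed the filter only through HFD control, so its call was fixed by the filter.

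NAD genes around Nampt gave 2 higher (12.5%) and 0 lower of 16 that passed the filter, from 24 listed. Slc25a51, the mitochondrial NAD carrier, stood at 109.4 FPKM in SML and 65.01 in HFD control, a ratio of 1.68 (1.61 to 1.76). Nadk2, the mitochondrial NAD kinase, had a ratio of 1.6 (1.38 to 1.86), with a difference of 0.41 once the GC and length trend was removed. Nmnat1 and Nmnat3 turn the product of Nampt into NAD in nucleus and mitochondria. Nmnat1 had a ratio of 1.33 (0.991 to 1.79), an interval that includes 1, and Nmnat3 had 0.655 (0.524 to 0.816). The difference of Nmnat3 was -0.54, and it was called lower with a pseudocount of 0.1 and on the count columns. Nnmt, which methylates nicotinamide, was at 0.955 (0.881 to 1.04). Sirt1, an NAD-dependent deacetylase, fell under the filter, with its FPKM listed at 0 in SML although 20 fragments were counted there and 35 in HFD control.

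No gene around Fgf21 passed the size rule, with 0 higher and 0 lower of 13 kept from 19 listed. Klb, the co-receptor that FGF21 needs, stood at 4.72 FPKM in SML and 7.04 in HFD control, a ratio of 0.67 (0.548 to 0.818) and a difference of -0.49. Fgfr1, its main receptor in fat, had a ratio of 1.12 (1 to 1.24). Atf4, a stress factor known to induce Fgf21, had 1.24 (1.15 to 1.34), and Fap, a protease that inactivates the hormone, 0.747 (0.423 to 1.29).

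Serpin genes were lower in the SML library where they passed the rule. Of 30 listed genes 13 passed the filter, with 0 higher, 7 lower (53.8%) and a median of -0.60. Serpina3n, the abundant cluster member of many mouse tissues, was 2.19-fold lower (1.57 to 3.11) at 2.59 FPKM in SML and 5.66 in HFD control, close to the value for Serpina3c. Serpina3k, a liver gene of the cluster, was listed at 0 in SML and 3.49 FPKM in HFD control. Serpina3g, known from T cells, stood at 2.68 FPKM in SML and 3.69 in HFD control, with an interval of the ratio from 0.5 to 1.04. Serpina1e, an antitrypsin gene of liver, was 4.83-fold lower (2.38 to 11.1) on 9 fragments in SML and 59 in HFD control. Of the 7 lower, 4 passed the filter through their HFD control value alone, and hepatocyte markers were lower beside them. The filter fixed the direction of these 4, and also the call for all of them but Serpina1e, at 0.78 FPKM in SML.

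Other factors secreted by fat numbered 68 in the list, of which 44 passed the filter, with 3 higher (6.82%), 7 lower (15.9%) and a median of -0.17. Of the lower ones 5 passed the filter through HFD control alone, and of the higher ones 1, Il18, through SML alone. Angptl8, under its older symbol Gm6484, an insulin-induced regulator of lipoprotein lipase, had the highest difference. It stood at 168.5 FPKM in SML and 76.54 in HFD control, a ratio of 2.19 (1.99 to 2.41). Il18 had a ratio of 3.26 (1.07 to 11.8) on 12 fragments in SML and 5 in HFD control. On the log2(FPKM + 1) scale Sfrp5, a secreted Wnt inhibitor, had the lowest difference at -1.15, with a count ratio 3.68-fold lower (2.05 to 7.07). Lgals3, a lectin of macrophages, had a difference of -1.07 and was 2.16-fold lower (1.84 to 2.54). Saa3 had the same rounded difference on 1 fragments in SML and 8 in HFD control, and by count ratio it, Timp1 (3.04-fold lower) and Spp1 (2.68-fold lower) lay below Lgals3. Agt, the angiotensin precursor, was 2.5-fold lower (1.21 to 5.68) on 10 fragments in SML and 34 in HFD control, with a difference of -0.54 once the GC and length trend was removed.

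Several known fat hormones of this list were under the size rule on the FPKM scale, some of them not under every setting. Rarres2, the gene of chemerin, stood at 146.5 FPKM in SML and 191.7 in HFD control, a ratio of 0.758 (0.692 to 0.83). Nrg4, a brown fat factor that acts on liver, had 1.18 (1.09 to 1.28) at 69.47 FPKM in SML and 58.79 in HFD control. Vegfa, the angiogenic factor, had 1.42 (1.29 to 1.56), and Apln, the gene of apelin, 1.55 (1.15 to 2.09). Igf1 had a ratio of 2.09 (1.7 to 2.6) in the count columns, while its FPKM stood at 5.31 in SML and 4.48 in HFD control, a difference of 0.20. Apln passed the rule with a pseudocount of 0.1 and on the count columns, Igf1 on the count columns, and Vegfa with the highest transcript only and with totals made equal without skeletal muscle markers.

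**Figure D4:**
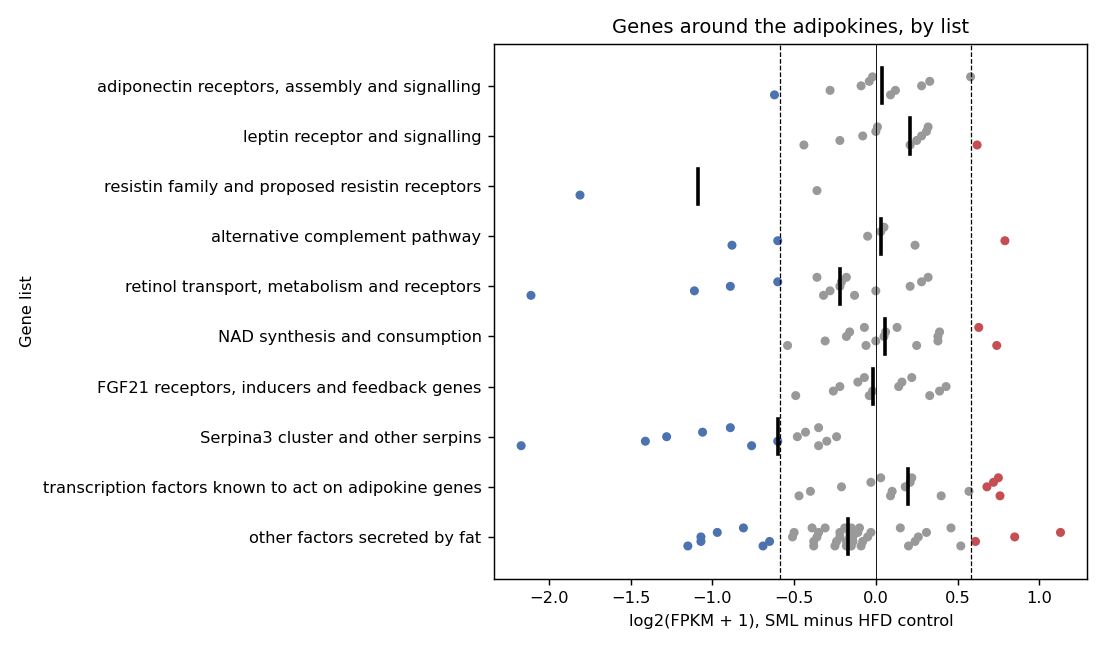
Difference in log2(FPKM + 1), SML minus HFD control, of each gene kept in the 10 lists around the adipokines, 1 point per gene, with black bars at list medians and dashed lines at 1.5-fold (red higher, blue lower). The serpin list lies wholly below 0 with a median of -0.60, and the list of transcription factors has 4 of its kept genes above the upper line and 0 below the lower.

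**Figure D5:**
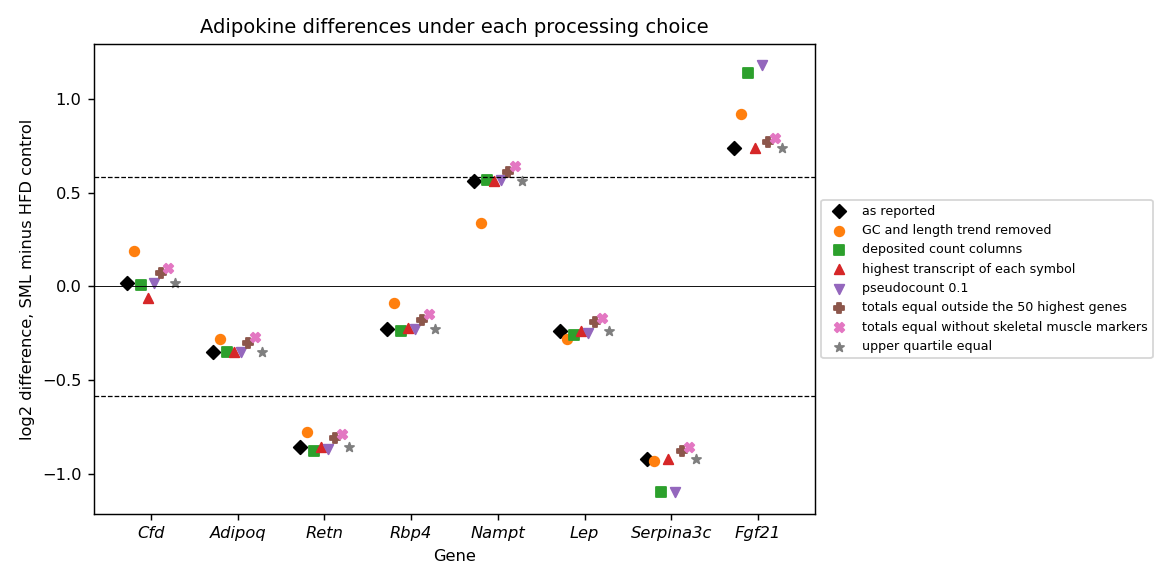
Difference of each adipokine gene, SML minus HFD control on the log2 scale, as reported (black diamonds) and under 7 other processing choices, with dashed lines at 1.5-fold. Retn (-0.88 to -0.78) and Serpina3c (-1.10 to -0.86) stay below the lower line under all 7, Fgf21 above the upper one (0.74 to 1.18), and Nampt crosses it in 2. The highest-transcript choice could not move genes with 1 transcript row, which are all but Cfd and Rbp4, and the upper quartile choice scaled SML by 1.002 only.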

How the data were processed

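Poly(A) RNA of 1 SML and 1 HFD control library was made into TruSeq libraries and sequenced, per the labels' protocols. The submitters' processing notes name CASAVA 1.8, Cufflinks and mm10. The aligner, annotation release and filters were not given in the sources used here for this table. The authors deposited FPKM per assembled transcript, and columns headed count that are a scaled signal: low values moved in steps of 0.866 in SML and 0.637 in HFD control, taken as the worth of 1 fragment. At these steps 90.3% of 740 low SML values and 90.8% of 520 low HFD control values were whole within 0.1, too few to use as raw counts, and fragment numbers are estimates.

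Rows were summed per symbol, with a pseudocount of 1 and a mean FPKM of at least 1. In 1443 rows the SML FPKM was 0 although the count was not, and the same held for the HFD control FPKM in 274 rows. Coordinates, lengths and GC content came from GENCODE M21 on GRCm38, the build of mm10, and promoters from RefSeq. Exon numbers are those of the first-numbered GENCODE transcript of each gene. The GC and length trend was a polynomial of degree 3 in each, fitted on 9764 genes (98.8%). Intervals were exact and conditional on the fragments of both libraries. The procedure was checked on simulated whole fragments, drawn from the same counting model that the intervals assume. The simulation held no variation between animals and no split between transcripts, so the check says nothing of either. Python 3.11.15, numpy 2.4.6, pandas 2.3.3, scipy 1.17.1 and Biopython 1.88 were used.

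Members, lists, the size rule and the alternatives were chosen with earlier results of these data known. Named list genes were those past the size rule, or the 2 largest in each direction where over 4 passed, plus genes fixed for their role. A pattern over 2 libraries gives no measure of likeness, so no genes of like pattern were sought.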

Additional observations from a re-analysis of the deposited data

How the results depend on the processing

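No paired analysis was possible because each group had 1 library and no test. Under 7 alternatives to the values reported, Retn ranged from -0.88 to -0.78, Serpina3c from -1.10 to -0.86 and Fgf21 from 0.74 to 1.18, all past the size rule, while Nampt ranged from 0.34 to 0.64. Taking the highest transcript could not move these genes, which have 1 row each, and the upper quartile factor was 1.002. Adipoq (-0.35 to -0.27), Lep (-0.28 to -0.17) and Rbp4 (-0.24 to -0.09) stayed negative and under the rule. Cfd ranged from -0.06, with the highest transcript only, to 0.19. Of the 8 genes, 2 were higher with totals equal outside the 50 highest genes or without skeletal muscle markers, when Nampt joined Fgf21. With a mean FPKM of 5 or more asked, 0 were higher, since Fgf21 was left out, and at 2-fold 0 were higher and 0 lower. Over all genes, 538 were higher and 569 lower. The count became 66 and 194 at 2-fold, 319 and 306 with a mean of 5 FPKM or more asked, 303 and 565 once the trend with GC content and length was taken out, 883 higher and 820 lower on the count columns, 847 higher and 833 lower with a pseudocount of 0.1, and 1117 lower without a filter. Totals equal outside the 50 highest genes gave 657 higher and 490 lower, and without skeletal muscle markers 738 and 457. The cause of the shifts was not tested where the construction does not give it. Depth limits Fgf21 (16 fragments in SML, 9 in HFD control) and Serpina3c (47 fragments in SML, 139 in HFD control) most.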
